A study of Homo sapiens with 10 samples.

Results

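SORL1 and the other 4 genes of the sortilin receptor family (SORT1, SORCS1, SORCS2 and SORCS3) were examined in RNA-seq libraries of U266 cells, 5 genes of 60574 in the count table. The members were found by gene name. SORL1 was chosen by its measured rise between the guides in these same libraries, and the other 4 were added as its relatives, so the levels of all 5 are given as a description, with no test. U266 is a long-established line of human myeloma cells, the malignant form of plasma cells. All 10 libraries came from cells carrying lentiviral dCas9-VPR, a Cas9 that cannot cut DNA fused to transcriptional activators, held under puromycin and blasticidin. In 5 libraries (A to E) the cells also carried a guide RNA to EFNB2, the gene for ephrin-B2 (label EFNB2 gRNA), and in the other 5 (A to E) a scrambled control guide (label control gRNA). The labels name no separate cultures or transductions behind the letters, so every p-value measures the spread between these libraries, which may be technical. Each library held 47268072 to 56513548 counted reads.

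Sortilin family receptors are membrane proteins with an N-terminal Vps10p domain that pick up cargo in the Golgi, at the cell surface and in endosomes and pass it on to another compartment. Their short cytosolic tails are read by adaptors such as the GGA proteins, AP complexes, PACS1 and retromer, and a propeptide is removed by furin-type proteases. SORL1 (also called SORLA or LR11) joins the Vps10p domain to repeats found in lipoprotein receptors, steers the amyloid precursor protein away from amyloidogenic cleavage, and binds the interleukin-6 receptor, whose ligand is a growth factor of myeloma cells. SORT1 (sortilin) carries lysosomal proteins such as prosaposin and takes up progranulin, proneurotrophins and neurotensin. SORCS1, SORCS2 and SORCS3 are best known from neurons.

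The members lie at separate places in the genome apart from SORCS1 and SORCS3, which share chromosome 10. In RefSeq's annotation of GRCh38, SORL1 spans chromosome 11, 121452314 to 121633763, on the plus strand, and SORT1 spans chromosome 1, 109309575 to 109397918, on the minus strand. SORCS2 lies on chromosome 4 (7192538 to 7742827), SORCS3 on chromosome 10 (104641290 to 105265242) and SORCS1 further along chromosome 10 (106573663 to 107181138). The 3 SORCS genes span 550 to 624 kb, against 181 kb for SORL1 and 88.3 kb for SORT1, although the merged exons of SORL1 are the longest of the family at 11.9 kb and those of the other 4 measure 5.76 to 7.88 kb. Reads are counted here over each whole gene, so no transcript form was told apart.

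The 250 bases before the start of SORL1, the member that differed most between the guides, and of SORT1, the member expressed in every library, are shown to compare their makeup (RefSeq, GRCh38.p14, 5' to 3' on the gene's strand, CG steps in capitals). The first window is chr11:121452064-121452313 (plus strand) and the second chr1:109397919-109398168 (minus strand).
SORL1: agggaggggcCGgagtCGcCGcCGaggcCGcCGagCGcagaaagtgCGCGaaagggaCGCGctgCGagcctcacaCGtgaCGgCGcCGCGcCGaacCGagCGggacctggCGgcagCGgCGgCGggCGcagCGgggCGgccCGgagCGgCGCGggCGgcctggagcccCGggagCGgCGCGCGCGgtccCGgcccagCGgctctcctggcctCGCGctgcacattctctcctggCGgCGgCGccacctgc
SORT1: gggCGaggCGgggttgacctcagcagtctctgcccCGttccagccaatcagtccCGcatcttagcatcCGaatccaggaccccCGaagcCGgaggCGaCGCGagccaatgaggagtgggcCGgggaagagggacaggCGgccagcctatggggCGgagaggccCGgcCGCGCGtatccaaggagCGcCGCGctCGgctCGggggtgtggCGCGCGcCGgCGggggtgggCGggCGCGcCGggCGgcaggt

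Both windows were rich in CG steps. The SORL1 window held 45 CG steps and 80.4% G and C, more CG steps than 99.4% of 27305 RefSeq promoter windows of the same length, whose median was 11. The SORT1 window held 32 (90.7th percentile), and those of SORCS1 and SORCS3 held 45 and 27 (99.4th and 82.7th percentiles). The SORCS1 window (chr10:107164707-107164956, minus strand) lies inside the gene span given above, not before its outer end. No window was available for SORCS2. Among the 4 members with a window, CG-rich windows were thus found at very different RNA levels. The GC box (GGGCGG, either strand) matched 2 times in SORL1, 3 times in SORT1 and 1 time each in SORCS1 and SORCS3, and 42.3% of all windows hold it. The CCAAT box (CCAAT, either strand, 33% of all windows) matched 2 times in SORT1 and not in the windows of SORL1, SORCS1 and SORCS3. TATAAA (11.1% of all windows) and the STAT pattern TTCNNNGAA (6.78%) matched none of these 4 windows on either strand.

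SORL1 RNA was almost absent with the control guide and clearly present with the EFNB2 guide. The control libraries A to E held 1, 0, 1, 0 and 3 reads. The EFNB2 guide libraries A to E held 263, 351, 328, 384 and 340 reads. Every library of the EFNB2 guide lay far above every control, and 30.3% of the 17834 genes tested in these libraries also had groups that did not overlap. In CPM (counts per 1000000 reads of the TMM-scaled library) the EFNB2 guide libraries A to E stood at 4.83, 6.78, 6.86, 7.87 and 6.72, with a mean of 6.61 CPM ± 1.10 (SD, n = 5). The control libraries stood at 0.0189, 0, 0.0179, 0 and 0.0547 CPM, with a mean of 0.0183 CPM ± 0.0223 (SD, n = 5). These bulk libraries cannot tell a change in the number of cells that hold SORL1 RNA from a change in its amount per cell.

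The size of the SORL1 difference rests on 5 control reads. Summed over the groups, 1666 reads stood against 5, a ratio of 355 after scaling (95% exact interval 152 to 1090, counting error only). The fitted log2 fold change was 8.30 (SE 0.29). Of the 5 control reads, 3 came from control library E, and without it the SORL1 log2 difference was 9.14. With the EFNB2 guide SORL1 ranked at the 43.2nd percentile of mean CPM among the tested genes. It passed the filter on low counts through the EFNB2 guide libraries alone. As a description of size, 4 other genes had no more control reads than SORL1 and no fewer reads with the EFNB2 guide: the ion channel and scramblase family member ANO4, the transcription factor CREB3L1, GDAP1L1 and the teneurin TENM3. No tested gene showed the mirror pattern.

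**Figure D1:**
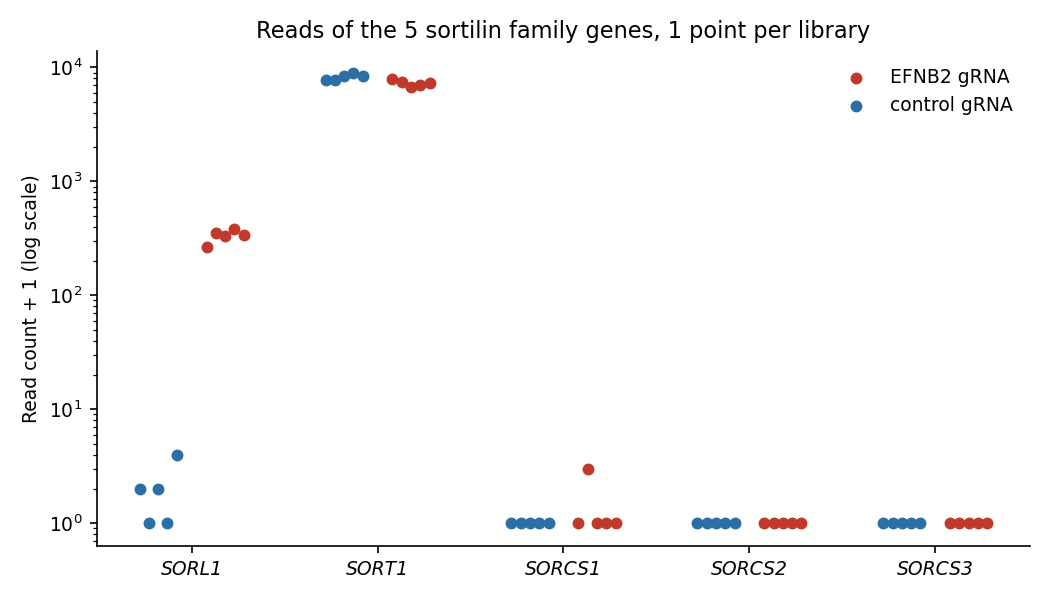
Read count plus 1 (log scale) of the 5 family members in each library, blue for the control guide and red for the EFNB2 guide, 1 point per library in the order A to E. SORL1 moved from 0 to 3 reads to 263 to 384 reads, SORT1 stayed between 6711 and 8881 reads, and the 3 SORCS genes held at most 2 reads in any library.

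Among the EFNB2 guide libraries, A stood lowest for SORL1. Its 4.83 CPM was 0.684 times the mean of the other 4 libraries, 7.06 CPM ± 0.544 (SD, n = 4). Library A also stood apart from its group for several cargo and adaptor genes described below. EFNB2 itself, the target of the guide, held 52, 58, 60, 73 and 61 reads in libraries A to E with its guide, and 9, 7, 8, 6 and 2 with the control guide. The guide's target thus rose in all 5 libraries, to 1.21 CPM ± 0.198 from 0.119 CPM ± 0.0509 (SD, n = 5 each). Its fitted log2 fold change was 3.32 (SE 0.25). EFNB2, like SORL1, passed the filter on low counts through the EFNB2 guide libraries alone, so its values are a description. Per kb of exon, a scale on which genes can be compared, SORL1 stood at 0.557 CPM per kb ± 0.0927 and EFNB2 at 0.241 CPM per kb ± 0.0395 (SD, n = 5 each) in the EFNB2 guide libraries. The 2 ranges did not overlap (0.407 to 0.662 against 0.191 to 0.299).

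SORT1 was the abundant member of the family in every library. The control libraries A to E stood at 145.9, 151, 152, 163 and 153 CPM and the EFNB2 guide libraries at 146.4, 145, 140.3, 145 and 143 CPM. The group means were 153 CPM ± 6.24 and 144 CPM ± 2.40 (SD, n = 5 each), a difference of -5.89%. The groups overlapped, since EFNB2 guide library A lay above control library A. The fitted log2 fold change was -0.09 (SE 0.03), and the SORT1 log2 difference was -0.06 without control library D, the highest of the 10. SORT1 ranked at the 92.1st percentile of tested genes in the controls and the 91.3rd with the EFNB2 guide.

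**Figure D2:**
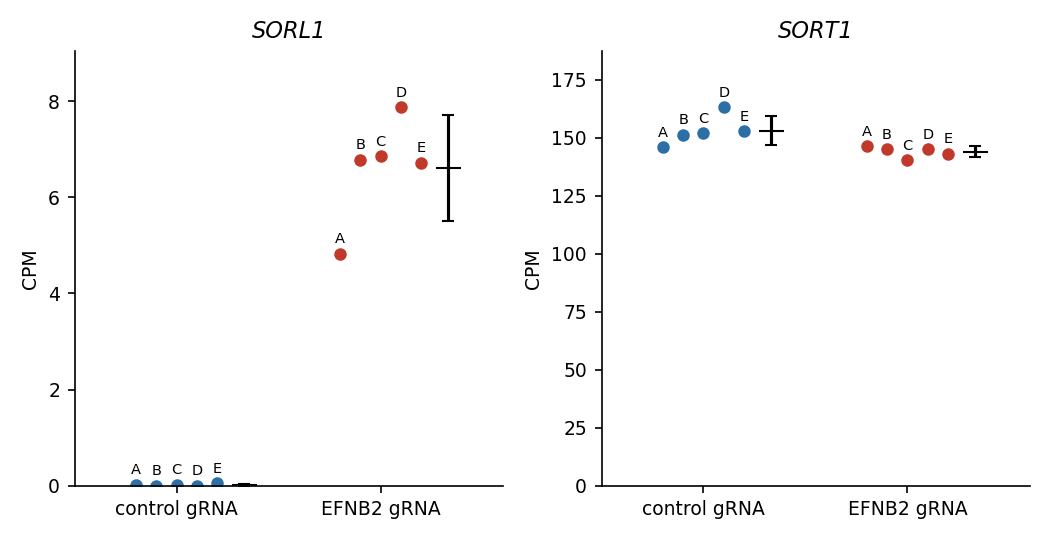
CPM of SORL1 (left) and SORT1 (right) in each library, lettered A to E, with the mean and SD of each group as a bar beside the points; both axes start at 0. SORL1 stood at 4.83 to 7.87 CPM with the EFNB2 guide and at most 0.0547 CPM with the control guide, whereas the SORT1 means were 144 and 153 CPM.

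The SORCS genes were at or near 0 in all 10 libraries. SORCS1 held 2 reads in EFNB2 guide library B and none elsewhere, and SORCS2 and SORCS3 held none in any library. A count of 0 over a group allows up to 3 reads, or 0.0118 CPM over the EFNB2 guide group and 0.0111 CPM over the controls. None of the 3 passed the filter on low counts, which left SORL1 and SORT1 as the 2 members among the 17834 genes fitted. Over those genes 45.4% passed an adjusted p of 0.05 by edgeR's quasi-likelihood test. Nothing is read from this test for SORL1, which was chosen on this contrast, or for SORT1, added as its relative.

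Per kb of exon, the order of the family with the EFNB2 guide was SORT1, then SORL1, then the SORCS genes. SORT1 stood at 18.3 CPM per kb ± 0.304 and SORL1 at 0.557 CPM per kb ± 0.0927 (SD, n = 5 each), and SORT1 was 27.8 to 45.7 times higher within a library. In the controls SORT1 stood at 19.4 CPM per kb ± 0.791 and SORL1 at 0.00154 CPM per kb ± 0.00188 (SD, n = 5 each). SORL1 and the 3 SORCS genes could not be ranked in the controls, where SORL1 lay at the level of a few reads. SORL1 made up 2.96% ± 0.494 (SD, n = 5) of the summed family level per kb with the EFNB2 guide, between 2.14% and 3.48%. In the controls its share was at most 0.0237%. The family sum itself was 18.8 CPM per kb ± 0.283 with the EFNB2 guide and 19.4 CPM per kb ± 0.791 in the controls (SD, n = 5 each), and the ranges of the sum overlapped.

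**Figure D3:**
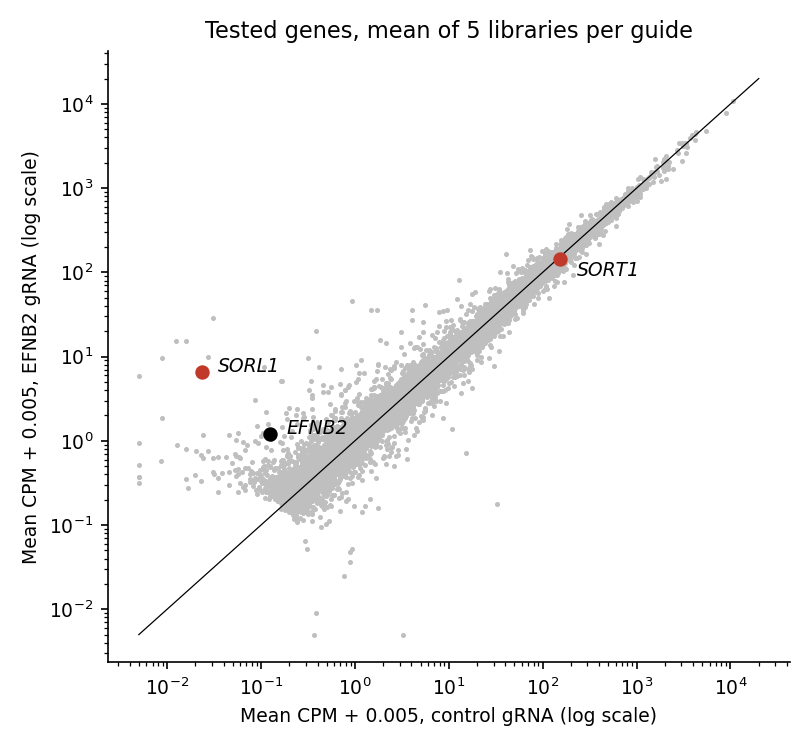
Mean CPM plus 0.005 of every tested gene with the control guide (horizontal) and the EFNB2 guide (vertical), both log scales, with a line of equal level. SORL1 (red) lies far above the line, from 0.0183 to 6.61 CPM, SORT1 (red) lies close to it at 153 and 144 CPM, and the guide's target EFNB2 (black) rose from 0.119 to 1.21 CPM.

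None of the tested genes around SORL1 passed the test. Of 23 genes of the count table that start within 1000 kb of SORL1, 3 passed the filter, all upstream of it and within 500 kb: SC5D, which encodes a late enzyme of cholesterol synthesis, TECTA, a gene for a protein of the inner ear, and TBCEL, a tubulin regulator. SC5D, whose start lies at -159.5 kb (minus for upstream), stood at 8.85 to 9.63 CPM with the EFNB2 guide and 9.29 to 10.2 CPM in the controls (log2 fold change -0.08, SE 0.05, adjusted p = 0.207). TECTA, at -351 kb and low, stood at 0.395 to 0.794 and 0.602 to 0.892 CPM (-0.24, SE 0.20, adjusted p = 0.342), and TBCEL, at -428 kb, at 8.76 to 10.3 and 9.17 to 10.7 CPM (-0.04, SE 0.06, adjusted p = 0.606). In all 3 the groups overlapped. Over all tested genes 45.4% passed and 30.3% had groups that did not overlap. The 20 genes that were not tested held 34 reads in all with the EFNB2 guide and 35 with the control guide, and 14 of the 23 had no read at all. The 1 annotated gene that overlaps SORL1, the antisense model AP000977.1, held 1 read in the 10 libraries.

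SORT1 lies among more active genes. Of 36 tested genes that start within 1000 kb of SORT1, 8 rose and 11 fell by edgeR's adjusted p of 0.05. Their median log2 fold change was -0.06, and over all tested genes it was 0.01, with 22.8% of genes higher and 22.6% lower. No gene was annotated as overlapping SORT1. Over the surroundings of all 5 members, 15 of 66 tested genes rose and 16 fell.

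**Figure D4:**
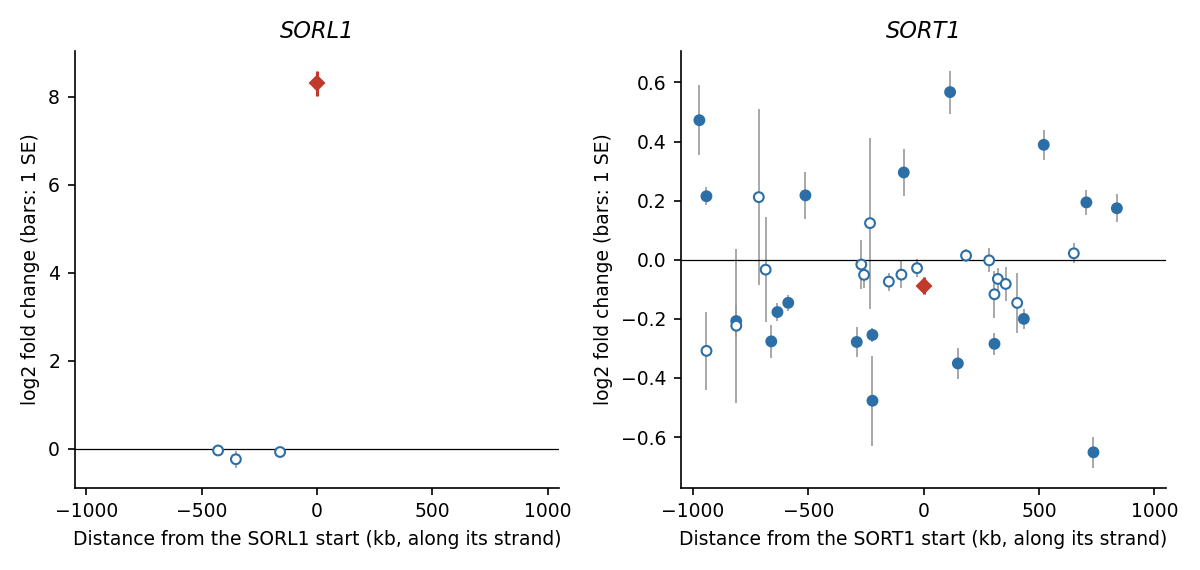
Log2 fold change (EFNB2 gRNA over control gRNA, bars 1 SE) of tested genes by the distance of their start from that of SORL1 (left) or SORT1 (right), in kb along the member's strand, filled where the adjusted p was under 0.05; red diamonds mark the members. The 3 genes near SORL1 lie between -0.24 and -0.04 beside its own 8.30, and 19 of the 36 genes near SORT1 are filled, on both sides of 0.

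Genes whose products bind, sort, cleave or resemble these receptors changed in both directions. Over 5 lists, 96 of 126 genes were tested, of which 29 rose and 29 fell. That is 60.4% of the tested partners, against 45.4% of all tested genes. The groups did not overlap for 40.6% of the tested partners, against 30.3% of all tested genes. Partners were mostly well expressed: of the 81 that reached a mean log2 CPM of 1, 61.7% passed, against 54.4% of all tested genes at that level. The median log2 fold change of the partners was -0.02.

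Of the cytosolic adaptors and retromer genes, 12 of 34 rose and 10 fell (median 0.01). Over all tested genes 22.8% rose and 22.6% fell. Genes for proteins that bind the receptor tails went both ways or did not pass. HSPA12A, PACS1 and SNX27 fell, AP1S2, AP2A2 and VPS35 rose, and GGA1, GGA2 and GGA3 did not pass. HSPA12A, a heat shock protein relative that binds SORL1, averaged 21.2 CPM in the controls and went to 14.5 to 15.3 CPM (log2 fold change -0.50, SE 0.04, adjusted p = 6.64e-08). PACS1, which returns SORL1 to the Golgi, went from 237 to 274 CPM to 187 to 214 CPM (-0.42, SE 0.04, adjusted p = 1.14e-06), and the endosomal sorting nexin SNX27 was slightly lower (-0.09, SE 0.03, adjusted p = 0.0107). The groups did not overlap for HSPA12A, PACS1 and SNX27, as for 14 of the 34 genes of this list and 30.3% of all tested genes.

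Other adaptors rose, fell or did not pass. The AP-1 subunit gene AP1S2 went from 29.1 to 32.7 CPM to 58.9 to 69.4 CPM (1.06, SE 0.05, adjusted p = 7.49e-11). The AP-4 subunit AP4E1 (0.38) and the AP-2 subunit AP2A2 (0.30) also rose, and the AP-4 subunit AP4S1 fell (-0.33). The retromer core was split: VPS35 rose (0.14, SE 0.02, 287 to 296 CPM in the controls and 317 to 327 CPM with the EFNB2 guide), while VPS26A (-0.04, adjusted p = 0.402), VPS26B (-0.02, 0.539) and VPS29 (0.04, 0.366) did not pass. The Golgi adaptors GGA1 (0.04, adjusted p = 0.599), GGA2 (0.06, 0.0879) and GGA3 (0.07, 0.157) did not pass either. GGA2 also passed without either A library and GGA3 without that of the EFNB2 guide. Without both A libraries VPS26A and all 3 GGA genes passed, at adjusted p of 0.032 for VPS26A and 0.000957, 0.00112 and 0.0027 for GGA1, GGA2 and GGA3.

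Among genes for the proteases that mature or shed these receptors, and for protease subunits and cofactors, 4 of 13 tested genes rose and 2 fell (median -0.03). The shares over all tested genes were 22.8% and 22.6%. FURIN, which removes the propeptide, went from 59.7 to 69.9 CPM to 103 to 107 CPM (0.70, SE 0.04, adjusted p = 4.86e-10). The related convertase PCSK7 rose (0.18) and the weakly expressed PCSK6 fell (-1.10, from 4.03 to 1.88 CPM). ADAM17, the main sheddase of SORL1, did not pass (-0.02, SE 0.03, adjusted p = 0.481), and the sheddase ADAM10 rose from 265 to 274 CPM to 335 to 352 CPM (0.34, SE 0.02). APH1A, a gamma-secretase gene, fell narrowly (-0.09, adjusted p = 0.0491, with a range of 2.53e-05 to 0.131 over the alternatives).

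Ligands and cargo gave 7 rises and 10 falls among 25 tested genes of 48 (median -0.02). Rises made up 22.8% and falls 22.6% of all tested genes. The lysosomal cargo of SORT1 went both ways. PSAP, which encodes prosaposin, went from 2024 to 2579 CPM to 1599 to 1896 CPM (-0.54, SE 0.06, adjusted p = 3.95e-06) and GM2A, the GM2 ganglioside activator, fell by 0.40. CTSH, the protease cathepsin H, rose from 6.22 to 8.99 CPM to 30.2 to 35.8 CPM (2.08, SE 0.08, adjusted p = 1.2e-11). The groups of these 3 genes did not overlap, as for 13 of the 25 tested genes of this list and 30.3% of all tested genes. GRN, which encodes progranulin, overlapped and did not pass (-0.19, SE 0.08, adjusted p = 0.0696), but passed without either A library or both (adjusted p = 9.42e-11 without both), with no filter and on the deposited normalized values.

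Cargo and ligands of SORL1 differed in level and direction. APP, the amyloid precursor gene, was weakly expressed at 0.747 CPM ± 0.342 and 0.739 CPM ± 0.154 (SD, n = 5 each), and did not pass (0.02, SE 0.26, adjusted p = 0.968). Its relative APLP2, at 69.0 and 63.1 CPM, rose (0.13, SE 0.03). BACE1, the enzyme that starts amyloid formation, did not pass the filter, with 22 and 32 reads in all. Its relative BACE2, named after its values were seen, went from 13 reads in the 5 controls to 256 reads with the EFNB2 guide. Like SORL1, BACE2 passed the filter on low counts through the EFNB2 guide libraries alone, so its values are a description. The fitted log2 fold change of 4.33 (SE 0.38) was the largest of the tested partner genes. BACE2 stood at 0.514 to 1.38 CPM with the EFNB2 guide and 0.0182 to 0.116 CPM in the controls, with no overlap. IL6R, the interleukin-6 receptor gene, went from 918 to 1134 CPM to 735 to 882 CPM (-0.46, SE 0.06, adjusted p = 8.24e-06), and its ligand IL6 did not pass (0.08, SE 0.13, adjusted p = 0.626). APOE, the gene of a lipid carrier that SORL1 binds, rose (0.89, SE 0.17, from 1.68 to 3.12 CPM). NGFR, the co-receptor of SORT1 for proneurotrophins, was higher at a very low level (1.18, SE 0.29, from 0.182 to 0.416 CPM). With 49 reads in all, the controls alone would not have passed NGFR through the filter on low counts, so its values are a description. The chaperone LRPAP1, which binds both SORL1 and lipoprotein receptors, rose by 0.09 (adjusted p = 0.0142), and did not pass with the replicate letter as a block or on the authors' normalized table (adjusted p up to 0.0727).

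**Figure D5:**
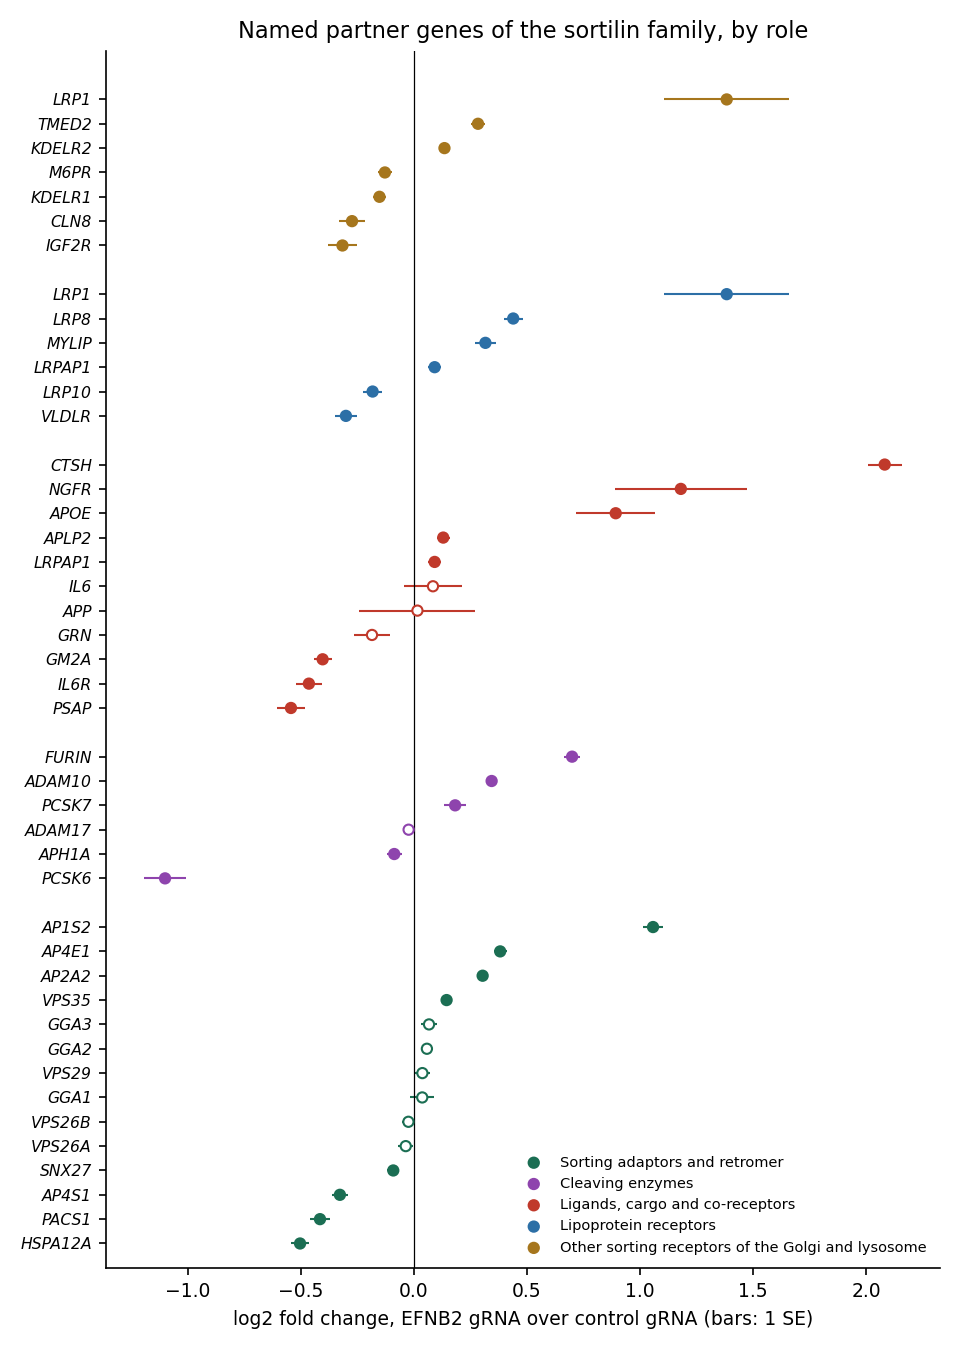
Log2 fold change (EFNB2 gRNA over control gRNA, bars 1 SE) of partner genes named by rule, BACE2 not among them, grouped by role and filled where the adjusted p was under 0.05; LRP1 and LRPAP1 stand in 2 groups each. CTSH (2.08), LRP1 (1.38), NGFR (1.18) and AP1S2 (1.06) lie furthest to the right and PCSK6 (-1.10) furthest to the left, with members of each group on both sides of 0.

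Of the lipoprotein receptor genes, with which SORL1 shares part of its extracellular build, 5 of 12 tested genes rose and 2 fell (median 0.14). Of all tested genes, 22.8% rose and 22.6% fell. LRP8 (0.44) and the ubiquitin ligase of these receptors, MYLIP (0.32), rose, and VLDLR (-0.30) and LRP10 (-0.18) fell. LRP1 rose at a low level (1.38, SE 0.28, from 0.484 to 1.27 CPM), with EFNB2 guide library D highest at 2.17 CPM, and by 1.11 without that library. Of the receptors and carriers that sort other cargo of the Golgi and lysosome, 3 of 14 rose and 5 fell (median -0.05). Both mannose 6-phosphate receptors fell, IGF2R (-0.32, SE 0.06, adjusted p = 0.000771) and M6PR (-0.13, SE 0.03, adjusted p = 0.00398), each with groups that overlapped. CLN8 (-0.27) and the ER retrieval receptor KDELR1 (-0.15) fell, and KDELR2 (0.14) and TMED2 (0.28) rose.

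Likeness to SORL1 over the 10 libraries was measured by Pearson's r of log2 CPM, over 11515 tested genes that reached a mean of 1 and carry more than a clone name. The most alike were HIP1R (r = 0.998), the cytokine IL32 (0.997), POLG (0.996), OIP5 (0.996) and RGS1 (0.996). These 10 points share the guide and the library, and 604 genes reached an r of 0.95. SORL1 was chosen by its rise between the guides, so r with it mostly reflects how cleanly a gene separates the guides. The fold changes of these 5 genes were smaller than that of SORL1, from 0.49 for HIP1R to 2.75 for IL32 on the log2 scale. For SORT1, whose groups overlapped, 6 genes reached an r of 0.95, a count that cannot be set against that of SORL1. They were led by RNGTT (0.968), MIB1 (0.967), ATP2B4 (0.959), ZNF24 (0.958) and TNKS2 (0.957), with log2 fold changes of -0.20 to -0.09.

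SORL1 is also expressed by myeloid cells and neurons, and markers of other cell types were measured beside it. The sum of 10 plasma cell markers was high in every library, 8543 to 8935 CPM with the EFNB2 guide and 8936 to 10111 CPM in the controls. Most of it was IGHE, SDC1 and JCHAIN, and not every marker was high: MZB1 stood at 3.52 and 5.57 CPM. Of the 10 genes, 4 were higher, with CD38 the most (2.175, adjusted p = 6.65e-08, from 1.77 to 8.00 CPM). Another 4 were lower: MZB1 (-0.66), SDC1 (-0.51), TNFRSF17 (-0.38) and IGHE (-0.18). For these and the marker counts that follow, the shares over all tested genes were 22.8% higher and 22.6% lower. The 9 myeloid markers summed to 2.55 to 3.49 CPM and 2.10 to 2.72 CPM, most of it ITGAM, with S100A8 at 0 and LYZ at 8 and 7 reads per group. Of the 2 myeloid markers tested, CD14 rose from 21 to 73 reads (1.85, adjusted p = 0.00659, and 2.71 without control library D) and ITGAM did not pass (0.13, adjusted p = 0.379). The groups overlapped for both genes. CD14 stood at 0.143 CPM in EFNB2 guide library D and at 0.294 to 0.348 CPM in the other libraries of that guide. The 7 neuronal markers summed to 27.5 to 29.6 CPM with the EFNB2 guide and 16.8 to 20.4 CPM in the controls. Nearly all of that was SYT1 (20.6 and 16.2 CPM) and SNAP25 (6.82 and 1.71 CPM). Of the 3 neuronal markers tested, SNAP25 (2.00, adjusted p = 1.83e-10) and SYT1 (0.34, adjusted p = 8.43e-05) rose. The third, MAP2, did not pass (0.30, adjusted p = 0.339). Among those not tested, STMN2 held 0 and 3 reads, RBFOX3 33 and 77, NEFL 23 and 1, and SYN1 12 and 10. The 5 T cell markers, mostly TRAC, summed to 12.1 to 13.3 CPM and 9.95 to 11.3 CPM, and CD3D held 1 and 2 reads. Of the 4 T cell markers tested, TRAC rose (0.60, adjusted p = 2.28e-06), CD8A fell from 308 to 174 reads (-0.73, adjusted p = 0.00343) and the other 2 did not pass. The part of these markers in the SORL1 difference was not tested. B cell and epithelial markers summed to at most 1.19 and 2.46 CPM in any library, and fibroblast markers, mostly COL1A1, to ranges that overlapped between the guides. Of the 2 fibroblast markers tested, COL1A1 rose (0.50, adjusted p = 5.9e-05) and COL3A1 fell (-0.44, adjusted p = 0.00567). The groups of these 2 genes did not overlap, as for 30.3% of all tested genes.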

How the data were processed

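Poly(A) RNA of 10 libraries was read as pairs on a NovaSeq after a strand-specific preparation, per the labels' protocols. STAR 2.27a, DESeq2, Partek and the build GRCh38 appear, with no role, in the submitters' processing notes. The sources used here do not name the annotation or strand setting used for counting. All main values use the raw counts that the authors deposited. They also deposited a normalized signal per gene, equal to the count plus 0.0001 times 1 factor per library (within 0.000497% for counts above 100), used only as an alternative. The 3 rows without a gene name (at most 7.00e-05% of reads) were left out.

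Genes that passed filterByExpr (17834) were scaled by TMM and fitted with edgeR 4.0.16 (glmQLFit and glmQLFTest, R 4.3.3), guide as the only term, with Benjamini-Hochberg adjustment over all of them and a threshold of 0.05. SE is the absolute log2 fold change over the square root of F, and 2 was the prior count of log2 CPM. The steps were tested on simulated data. Exon lengths are merged exons of protein-coding transcripts in GENCODE 29. Start sites are RefSeq's, or GENCODE 29's where RefSeq gave none, and 96.7% of tested genes had one. Alternatives were DESeq2 1.42.0, RLE scaling, library totals, no filter, at least 1 CPM in 5 libraries, the replicate letter as a block, limma-trend (limma 3.58.1) on log2(deposited value + 1), leaving out each library or both A libraries, and other prior counts for SORL1. The members, lists and tests were chosen with earlier results of these data known. Genes are named by rule: the members, up to 3 rises and 3 falls of each list at a mean log2 CPM of at least 1, a set given by name, tested genes within 500 kb of SORL1, and the 5 most like SORL1 and SORT1. ANO4, CREB3L1, GDAP1L1, TENM3, AP000977.1, BACE2, CD14, CD8A, TRAC, COL1A1, COL3A1 and the plasma cell markers given by name were named after their values were seen. Intervals cover counting error only. Some genes that the rule names are not reported here.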

Additional observations from a re-analysis of the deposited data

Results flagged for a closer look

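For 14 of 128 groups of 5 libraries checked over 64 genes, 1 library lay outside the others by more than Dixon's 95% criterion, where chance alone gives about 1 in 20. In 10 of the 14 it was an A library. Of cargo genes, PSAP stood at 1896 CPM in EFNB2 guide library A (others 1599 to 1650) and at 2024 CPM in control library A (others 2478 to 2579). IL6R stood at 882 CPM (others 735 to 772) and 918 CPM (others 1106 to 1134) in the same 2 libraries. GRN stood at 1068 CPM in EFNB2 guide library A (others 824 to 872). APOE at 2.74 CPM (others 1.22 to 1.61) and APLP2 at 60.7 CPM (others 63.1 to 64.0) were apart in control library A. In EFNB2 guide library A, LRP10 stood at 163 CPM (others 148 to 152), GGA3 at 89.9 CPM (others 97.0 to 98.9) and IL32 at 13.1 CPM (others 14.7 to 15.1). Outside the A libraries, ADAM17 stood at 66.7 CPM in control library B (others 63.9 to 64.5) and LRP1 at 2.17 CPM in EFNB2 guide library D (others 0.908 to 1.19). BACE2 stood at 0.116 CPM in control library B (others 0.0182 to 0.0378) and CD14 at 0.143 CPM in EFNB2 guide library D (others 0.294 to 0.348). SORL1 and SORT1 met the criterion in neither group.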

How the results depend on the processing

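The fitted SORL1 log2 difference of 8.30 lay between 8.30 and 8.49 with DESeq2, other scalings and filters, the replicate block, summed counts and without both A libraries. It was 2.88 on the deposited normalized values, where the added 1 exceeds every control value, 9.25 and 6.94 as a difference of mean log2 CPM with a prior count below 1 and one of 2, and 8.01 to 9.14 when 1 library was left out. SORT1 kept its sign, from -0.11 to -0.06. Counts of calls stayed within 1.5 times for all tested genes, partner genes and neighbours under every alternative run. Same-letter libraries did not deviate alike from their group means: these deviations correlated at -0.521 (letter A) to 0.0102 (letter D). Such correlations cannot tell whether same-letter libraries were handled together. With the replicate block 6762 genes passed against 8098, 48 partners against 58 and 26 neighbours against 31. Of 1108 alternative values over 62 named genes, 25 lost the call, 13 gained one and 7 changed sign. The 7 belong to 3 genes that passed in none of these fits. The APP log2 fold change of 0.02 was -0.029 with the replicate block, -0.020 on the deposited normalized values and -0.27 to 0.17 when 1 library was left out (below 0 without EFNB2 guide library D or control library C or D). Leaving out 1 library gave -0.0019 to 0.17 for IL6 (below 0 without EFNB2 guide library C) and -0.039 to 0.00078 for VPS26B (above 0 without control library D). A fold against 0 to 3 reads per control library limits SORL1.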
